A study of Rattus norvegicus with 18 samples.

Results

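The genes described here were chosen by their measured level: they are typed lncRNA in the deposited gene table and reached 5 FPKM or more in at least 6 of the 18 libraries. FPKM is the number of fragments per kilobase of gene, scaled by a size given to each library, so levels can be set side by side between genes of different length. A total of 170 genes met this rule, which is 6.83% of the 2488 genes typed lncRNA and a small part of the 32116 genes in the table. RNA came from rat kidneys in 3 groups of 6 libraries each. SZ rats received SZ-A (300 mg/kg daily) together with adenine (100 mg/kg daily), CKD rats received that adenine dose alone, and NC rats were untreated controls. Both adenine groups therefore share the adenine, and SZ and CKD differ by SZ-A. The sources used here give no age, sex, strain or length of treatment, and no composition of SZ-A. Whether every library is a different rat is not stated by the labels, so p-values measure only the spread among the libraries, some of which may be technical.

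Long non-coding RNAs are transcripts without a long translated reading frame. Some act in the nucleus as scaffolds or at the locus they are made from, and others are the host transcripts of small nucleolar RNAs (snoRNAs), which guide chemical changes of ribosomal RNA. Annotation programs also give this type to transcript models that lie beside a coding gene or for which no protein was accepted. Dietary adenine forms crystals in the tubules and leads to tubule loss, inflammation and scarring, and is a widely used rat model of chronic kidney disease.

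The lncRNA type did not hold evenly when set against the table's own descriptions. Of the 170 genes, 36 carried a protein match or a gene name, among them 30 with a Swiss-Prot match, and 134 carried none. The gene with the highest level was Gpx3, glutathione peroxidase 3, a secreted selenium-containing enzyme made mainly by the proximal tubule, which is a protein-coding gene in common knowledge. Other genes with a protein match were ENSRNOG00000021403 (RhoB, a small GTPase), Rab32 (a small GTPase of membrane traffic), ENSRNOG00000010918 (CCAAT/enhancer-binding protein alpha, a transcription factor) and Mrpl52 (a mitochondrial ribosomal protein). None of 73 symbols of well-studied lncRNAs, such as Malat1, Neat1 and Gas5, was among the 170, and only 3 of these symbols occurred anywhere in the table, none typed lncRNA. The search was by symbol only, and only 13 of the 170 genes have one. It therefore cannot show whether these RNAs are among the genes named by an identifier. In view of the protein matches, the 170 genes are called lncRNA-labelled below, and those with and without a description are given apart. The description is the table's and was not checked against sequence here.

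Sequence could be matched for few of them. Of 13 genes with a symbol, 9 were in the RefSeq promoter set for the build GRCr8, which gives 250 bases before and 50 bases after each gene's start. Promoters are shown for Gpx3 and Rab32, members with symbols that fell and rose in CKD kidneys, and for Col8a1 and Slc16a7, the coding genes beside the members with the largest rise and the largest fall. Capitals mark matches, on either strand, to the TATA box TATAAA, the box named CCAAT, the GC box GGGCGG or the AP-1 motif TGACTCA. They run 5′ to 3′ on the gene's strand, from chr10:39529085-39529384 (plus strand), chr1:6781209-6781508 (minus strand), chr11:56246532-56246831 (plus strand) and chr7:63040349-63040648 (minus strand).
Gpx3: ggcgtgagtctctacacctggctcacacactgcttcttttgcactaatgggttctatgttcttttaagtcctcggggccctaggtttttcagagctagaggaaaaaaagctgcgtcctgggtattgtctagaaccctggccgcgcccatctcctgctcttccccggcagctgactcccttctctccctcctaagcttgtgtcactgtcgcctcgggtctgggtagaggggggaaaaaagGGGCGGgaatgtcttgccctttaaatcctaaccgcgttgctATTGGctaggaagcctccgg
Rab32: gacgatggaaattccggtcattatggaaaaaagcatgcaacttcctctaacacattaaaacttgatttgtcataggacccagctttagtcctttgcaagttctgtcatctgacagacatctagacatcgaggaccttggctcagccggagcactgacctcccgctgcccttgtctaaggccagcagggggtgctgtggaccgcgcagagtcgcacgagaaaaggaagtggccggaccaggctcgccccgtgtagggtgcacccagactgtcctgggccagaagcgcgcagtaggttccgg
Col8a1: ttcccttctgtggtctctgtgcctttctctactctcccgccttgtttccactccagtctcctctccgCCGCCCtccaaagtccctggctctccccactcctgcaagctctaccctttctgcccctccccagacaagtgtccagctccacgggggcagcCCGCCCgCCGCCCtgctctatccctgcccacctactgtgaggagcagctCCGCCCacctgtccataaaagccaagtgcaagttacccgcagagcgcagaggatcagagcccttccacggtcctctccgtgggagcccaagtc
Slc16a7: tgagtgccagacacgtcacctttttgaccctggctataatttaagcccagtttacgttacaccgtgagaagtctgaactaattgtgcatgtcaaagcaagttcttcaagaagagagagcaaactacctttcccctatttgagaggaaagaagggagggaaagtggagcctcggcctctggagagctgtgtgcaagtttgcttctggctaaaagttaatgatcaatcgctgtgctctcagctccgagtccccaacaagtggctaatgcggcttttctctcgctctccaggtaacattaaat
Gpx3 held 1 GC box and 1 CCAAT box, Col8a1 held 4 GC boxes, and Rab32 and Slc16a7 held none of the 4 motifs. The GC box was in 33.1% of all 33469 RefSeq promoters, the CCAAT box in 37.5%, TATAAA in 14.2% and TGACTCA in 4.63%. None of the matches shown overlaps another. A match describes these letters in this window and nothing more.

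Position set most of the 170 genes close behind a coding gene. All coordinates other than those of the promoters are of the build mRatBN7.2. None overlapped the body of a protein-coding gene, and neither did any of the 2488 genes typed lncRNA. The median distance to the nearest coding gene was 1068.5 bases, with 82 genes within 1000 bases, 142 within 5000 and 14 farther than 20000. A total of 125 genes (73.5%) lay within 5000 bases of the 3′ end of their nearest coding gene, 71 on its strand and 54 on the other strand. Among the 2318 genes typed lncRNA that missed the rule, 19.2% had that position. A single unbroken block, with no intron, made up 109 of the 170 genes (64.1%), against 14.0% of the genes that missed the rule. Of the 134 genes with no description, 110 (82.1%) were on the 3′ side within 5000 bases. Gene-level values do not show whether such a gene is a transcript of its own or RNA of the coding gene that runs past its annotated end. The sources used here do not say which strand setting the counting used, and 31 genes overlapped another gene of the table, 22 of them a lncRNA-labelled gene on the opposite strand, so reads of those cannot be told apart by strand.

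**Figure D1:**
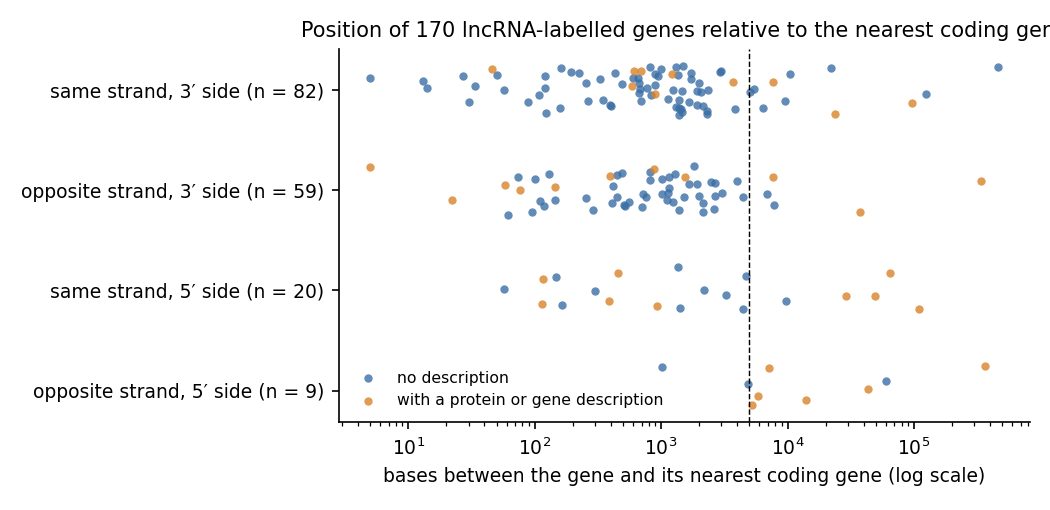
Bases between each of the 170 lncRNA-labelled genes and its nearest protein-coding gene (x axis, log scale), by strand and side (vertical scatter within a row is only for legibility), with the dashed line at 5000 bases. Blue points have no protein or gene description and orange points have one, and most blue points lie on the 3′ side to the left of the line.

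The libraries held 15354358 to 18532375 reads each, of which the 170 genes took 0.762% to 1.28%. A member had a median of 404 reads per library. A total of 114 members were at 5 FPKM or more in all 18 libraries, and the other 56 were not. One member, ENSRNOG00000066880 beside Atp5pb, passed the rule only through NC libraries, and none passed only through CKD or only through SZ libraries. No NC library reached 5 FPKM for 4 members, no CKD library for 5 and no SZ library for 1. ENSRNOG00000064142 had no such NC library, and ENSRNOG00000071046 and ENSRNOG00000065826 had no such CKD library. ENSRNOG00000065826 had 2.32 FPKM in NC 5 and reached its sixth library only through SZ 2, at 5.32 FPKM. None of the 3 passed through libraries of the group where it is low, so the rule itself favours their gap between CKD and NC. The count of changed members is therefore given also for the 114. The 3 members nearest above the threshold were ENSRNOG00000067089, ENSRNOG00000062883 and ENSRNOG00000066229, whose sixth-highest library was at 5.02, 5.05 and 5.16 FPKM. The 3 nearest below it were ENSRNOG00000065776, ENSRNOG00000070316 and AABR07013165.1, at 4.89, 4.87 and 4.86 FPKM. Kidney markers were present in all groups, with the 5 proximal tubule markers summing to 1367 to 2285 FPKM in SZ, 489.7 to 1271 in CKD and 2318 to 3103 in NC libraries. The 10 macrophage markers summed to 452.2 to 1057 FPKM in SZ, 1143 to 2529 in CKD and 112.1 to 213.7 in NC libraries, and the 6 fibroblast and myofibroblast markers to 132.5 to 215 in SZ, 190.8 to 568.2 in CKD and 44.2 to 116.4 in NC libraries. Adrenal markers stayed under 1 FPKM in sum in every library, and Upk3a of the urothelium was at 0 in all SZ and all NC libraries. In whole tissue, fewer cells of a type and less RNA per cell cannot be told apart.

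Libraries CKD 2, CKD 5 and SZ 3 stood apart from the rest. The slope of a library's log2 level on log2 gene length, taken against the mean of all libraries, was -0.248 in SZ 3, -0.211 in CKD 2 and -0.312 in CKD 5, against -0.100 to 0.115 in the other 15 libraries. The same 3 libraries stood apart in the members' level relative to their neighbours. Over 121 members with no description and a tested nearest coding gene, the median log2 difference between member and neighbour, centred per pair, was 0.74 in SZ 3, 0.91 in CKD 2 and 1.15 in CKD 5, and -0.31 to -0.01 in the other 15 libraries. In SZ 3 it was above the pair's own mean for 106 of 121 pairs, in CKD 2 for 109 and in CKD 5 for 106. By length, it was 0.67, 0.89 and 0.76 in SZ 3, CKD 2 and CKD 5 over the 24 pairs with the member the longer gene. Over the 97 pairs with the member the shorter gene it was 0.74, 0.92 and 1.16. What set these libraries apart was not tested. Results of named genes and pairs that moved by over 1.5 times or changed call without these libraries are given with and without them.

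**Figure D2:**
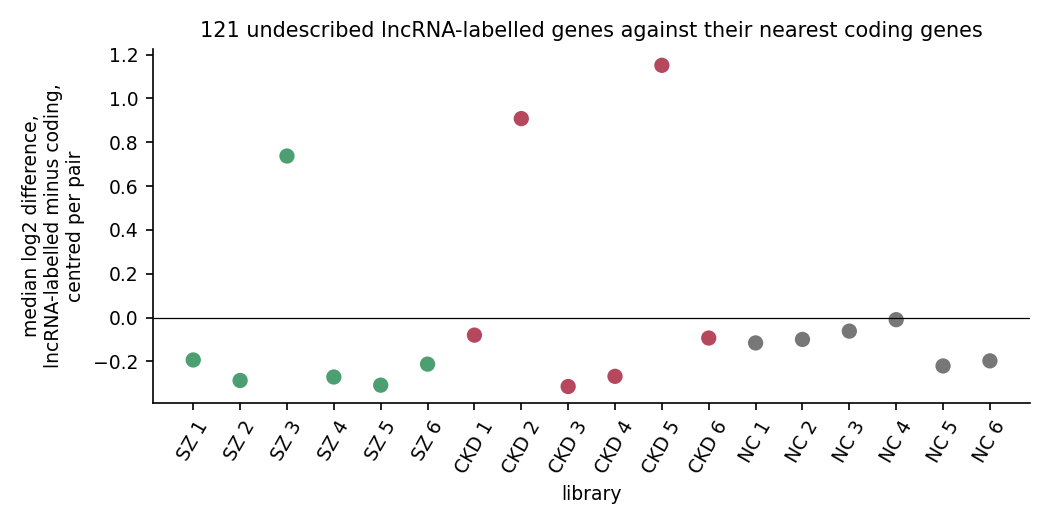
Median over 121 pairs of log2(FPKM + 1) of a lncRNA-labelled gene minus that of its nearest coding gene, centred per pair (y axis), in each library (x axis, coloured by group). SZ 3, CKD 2 and CKD 5 sit at 0.74, 0.91 and 1.15, and the other 15 libraries sit below 0.

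The most abundant members were named by their mean over the 18 libraries. Gpx3, on chromosome 10 (39028570 to 39037035, plus strand), averaged 1356 FPKM and made up 23.0% to 44.8% of the members' summed FPKM in SZ, 9.06% to 29.7% in CKD and 26.3% to 50.6% in NC libraries. ENSRNOG00000016410 on chromosome 17 (9305361 to 9308407), matched to PRELI domain-containing protein 1, a lipid carrier between mitochondrial membranes, averaged 203 FPKM. ENSRNOG00000019682 on chromosome 7 (8809058 to 8809910), matched to Tim13, a chaperone of mitochondrial protein import, averaged 104 FPKM. ENSRNOG00000021403 on chromosome 6 (31363548 to 31366108), matched to RhoB, averaged 101 FPKM. The most abundant member with no description was ENSRNOG00000070935 on chromosome 20 (29379883 to 29382001), 666 bases past the 3′ end of Eif4ebp2, which encodes a repressor of cap-dependent translation, at 67.0 FPKM. Of the other members, 75 averaged under 10 FPKM and the median over all 170 was 11.6 FPKM.

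The first comparison asks what adenine changed. The largest rise in CKD kidneys was of a member beside Col8a1 and the next of one beside Col5a1. The largest fall was of a member beside Slc16a7 and the next of one beside Col4a3. The member with the largest rise had no NC library at 5 FPKM, and that with the largest fall no CKD library. The rule that chose the members thus favours both of these gaps. Whether the kind of neighbour went with the direction was not tested. At an adjusted p under 0.05 by limma, 76 of the 170 members changed in CKD against NC kidneys, 25 higher and 51 lower. That is 44.7% of the members, while 50.3% of all 13851 tested genes were called (24.4% higher and 26% lower) and 52.6% of the 8637 protein-coding genes under the same FPKM rule. A share near or below that of all genes is no result about the members as a class. Of the 114 members at 5 FPKM in all libraries, 15 rose and 33 fell. Members with a description changed in 17 of 36 cases (8 higher, 9 lower) and members with none in 59 of 134 (17 higher, 42 lower). The median member changed by -0.09 on the log2(FPKM + 1) scale and the median of all tested genes by -0.04. The deposited FPKM were not scaled by plain library totals. The size used, over the library's total reads, was 0.862 to 0.951 in NC and 1.02 to 1.26 in CKD libraries. In SZ libraries it was 0.969 to 1.12. Why this ratio differs between groups was not tested. The split between higher and lower depends on the scaling. It was 81 higher and 17 lower with libraries scaled to 1 FPKM sum, where the median of all genes moved to 0.34, 69 higher and 23 lower with plain library totals, where it moved to 0.25, and 41 higher and 36 lower when the 20 most abundant genes were left out of the scaling. Groups did not overlap for 31 members, 9 higher and 22 lower in CKD (18.2%), against 26.5% of all tested genes.

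**Figure D3:**
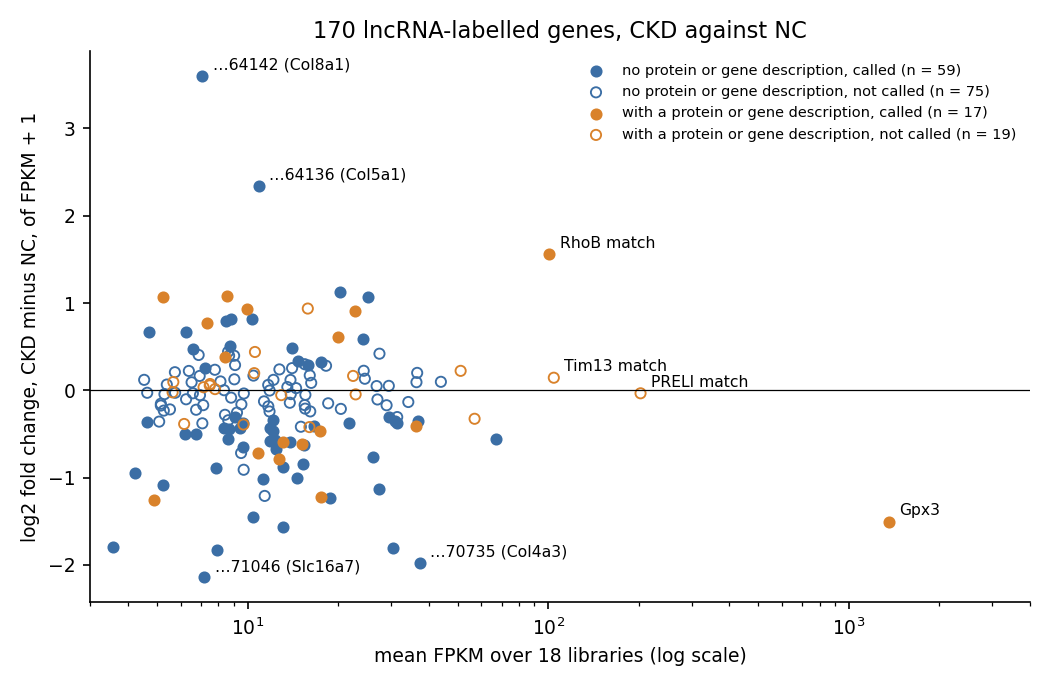
Log2 fold change of FPKM + 1, CKD minus NC (y axis), against mean FPKM over 18 libraries (x axis, log scale) for the 170 lncRNA-labelled genes. Filled points passed limma at an adjusted p under 0.05 (76 genes), orange points carry a protein or gene description, and Gpx3 at 1356 FPKM lies far to the right of the rest.

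ENSRNOG00000064142, a gene of 1 block on chromosome 11 (42908366 to 42909428, plus strand), lies 1941 bases past the 3′ end of Col8a1, which encodes a short-chain collagen, on the same strand. Its level ran from 7.11 to 41.8 FPKM with a median of 12.7 in CKD libraries, and from 0.0643 to 0.506 with a median of 0.210 in NC libraries. Every CKD library was above every NC library, and the NC libraries held 24 reads of it in all. The log2 fold change was 3.60 ± 0.35 (SE) at an adjusted p of 2.40e-07 by limma, and on this scale it understates the change of a gene so low in NC. Col8a1 itself had 3.45 to 13.5 FPKM in CKD libraries and 0.162 to 0.525 in NC libraries, a log2 fold change of 2.55 ± 0.25. The member rose by 1.05 ± 0.35 more than Col8a1 (adjusted p = 0.0182 by limma on the difference within each library). Without CKD 5 this difference was 0.70 (adjusted p = 0.0364), and without CKD 2, CKD 5 and SZ 3 it was 0.48 (adjusted p = 0.0336).

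ENSRNOG00000064136 on chromosome 3 (11354747 to 11357054, plus strand) begins 158 bases past the 3′ end of Col5a1, which encodes a chain of fibrillar collagen V, on the same strand. It had 9.41 to 37.7 FPKM with a median of 18.5 in CKD libraries, and 2.04 to 6.52 with a median of 2.23 in NC libraries, with no overlap. The log2 fold change was 2.34 ± 0.28 (adjusted p = 2.31e-06 by limma), beside 1.91 ± 0.28 for Col5a1 (5.61 to 23.4 FPKM in CKD and 1.00 to 4.64 in NC). The difference of 0.44 ± 0.28 between the pair did not pass (adjusted p = 0.20), and without CKD 2, CKD 5 and SZ 3 it was -0.04 (adjusted p = 0.822). The fibroblast and macrophage marker sums given above moved in the same direction as both of these members, and their part in the result was not tested.

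The RhoB-matched ENSRNOG00000021403 had 81.9 to 214 FPKM with a median of 157 in CKD libraries, and 31.2 to 67.7 with a median of 51.8 in NC libraries. The groups did not overlap, and the log2 fold change was 1.56 ± 0.23 (adjusted p = 2.30e-05 by limma). RhoB acts on endosomes and the cell skeleton. Its nearest coding gene, Slc7a15, was too low to be tested, and against the nearest tested one, Pum2, it rose by 1.62 ± 0.24 more.

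Another pair of members rose by more than 1 on this scale and are named by the rule. ENSRNOG00000064309 on chromosome 20 (54422107 to 54426572), which lies 465210 bases from the nearest coding gene, had 19.7 to 73.4 FPKM with a median of 24.2 in CKD and 9.30 to 14.6 with a median of 13.0 in NC libraries (log2 fold change 1.12 ± 0.25, adjusted p = 0.00126 by limma). ENSRNOG00000066854, a member with a description, lies on chromosome 18 (25404131 to 25405980), 76 bases from the 3′ end of Epb41l4a on the other strand. It holds 1 small RNA gene (typed snoRNA, miRNA or scaRNA). It had 8.91 to 28.3 FPKM with a median of 10.6 in CKD and 3.23 to 6.35 with a median of 5.68 in NC libraries (1.08 ± 0.23, adjusted p = 8.62e-04 by limma). Both ENSRNOG00000064309 and ENSRNOG00000066854 had no overlap between CKD and NC, and both had their highest value in CKD 5. Without CKD 2, CKD 5 and SZ 3 the log2 fold changes were 0.78 and 0.80 and both stayed called. Epb41l4a, a membrane-skeleton linker protein gene, fell to 5.72 to 8.79 FPKM in CKD libraries, against 7.70 to 9.55 in NC libraries (-0.32 ± 0.09, adjusted p = 0.00942 by limma), opposite to the member in direction, but it was not called with plain library totals (-0.01), without the 20 most abundant genes (-0.20) or with 1 FPKM sum, where its sign turned (0.09). The difference within the pair was 1.39 ± 0.27 (adjusted p = 2.90e-04), and 1.05 without CKD 2, CKD 5 and SZ 3.

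Described members that also rose were Rab32, Tcim, Lemd2, and those matched to CCAAT/enhancer-binding protein alpha, growth arrest-specific protein 1 and nidogen-2, a basement membrane glycoprotein. Rab32 on chromosome 1 (4945036 to 4960934) had 10.4 to 18.8 FPKM with a median of 12.7 in CKD and 5.59 to 7.07 with a median of 6.75 in NC libraries, with no overlap (0.94 ± 0.13, adjusted p = 1.64e-05 by limma). Tcim, a small regulator of transcription first found in thyroid cancer, had 18.3 to 46.3 FPKM in CKD and 11.7 to 24.1 in NC libraries (0.91 ± 0.25, adjusted p = 0.00574). These described members were singled out after their values were seen.

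Gpx3 led the described members that fell. It had 335.3 to 1079 FPKM with a median of 705 in CKD libraries, and 1042 to 2861 with a median of 1774 in NC libraries. The groups overlapped at the edge, and the log2 fold change was -1.51 ± 0.35 (adjusted p = 0.00151 by limma). Tnip1, an inhibitor of inflammatory NF-kappa-B signalling whose 3′ end lies 22 bases away on the other strand, rose by 0.50 ± 0.11 (27.0 to 35.4 FPKM in CKD and 15.8 to 24.8 in NC). The pair differed by -2.01 ± 0.41 (adjusted p = 5.04e-04). The proximal tubule marker sum given above was lower in CKD as well, and its part in this result was not tested.

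ENSRNOG00000071046 on chromosome 7 (61049021 to 61051109, minus strand) begins 57 bases past the 3′ end of Slc16a7, a monocarboxylate (lactate and pyruvate) transporter gene, on its strand. It had 0.845 to 4.04 FPKM with a median of 2.77 in CKD libraries and 10.7 to 17.1 with a median of 14.9 in NC libraries. All CKD values were below all NC values, and the log2 fold change of -2.14 ± 0.32 was the lowest of the members (adjusted p = 2.67e-05 by limma). Slc16a7 had 4.77 to 10.3 FPKM in CKD and 21.4 to 31.1 in NC libraries, a change of -1.73 ± 0.22, and the difference within the pair did not pass (-0.41 ± 0.19, adjusted p = 0.083). That difference was -0.15 without CKD 2, CKD 5 and SZ 3 (adjusted p = 0.323), and it passed without CKD 4 (-0.52, adjusted p = 0.0293) or without SZ 3 (-0.41, adjusted p = 0.0491). A further member past the same end, ENSRNOG00000068660 at 6405 bases, had 2.85 to 12.4 FPKM in CKD and 17.2 to 28.2 in NC libraries (-1.57 ± 0.24, adjusted p = 3.80e-05).

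ENSRNOG00000070735 on chromosome 9 (84001970 to 84007705, minus strand) lies 74 bases from the 3′ end of Col4a3, a collagen chain of the glomerular basement membrane, on the other strand. It had 5.30 to 25.5 FPKM with a median of 16.3 in CKD and 49.1 to 77.8 with a median of 60.8 in NC libraries, with no overlap (-1.97 ± 0.30, adjusted p = 3.49e-05 by limma). Col4a3 had 1.52 to 10.7 FPKM in CKD and 20.7 to 32.2 in NC libraries, a change of -2.15 ± 0.40. The 3 podocyte markers measured summed to 45.4 to 108.6 FPKM in CKD and 120.9 to 199.5 in NC libraries, and their part in this result was not tested.

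The other members with the lowest fold changes were less even. ENSRNOG00000064012 on chromosome 6 (27804576 to 27808890), whose nearest coding gene Pfn4 was at or near 0, had 1.13 to 8.04 FPKM with a median of 1.77 in CKD and 3.57 to 23.3 with a median of 13.5 in NC libraries (-1.83 ± 0.44, adjusted p = 0.00206 by limma), and the groups overlapped. ENSRNOG00000065826 on chromosome 10 (35391676 to 35395931), 299 bases before the start of Zfp354a, a zinc-finger gene that falls after kidney injury in rats, had 0.125 to 2.41 FPKM in CKD and 2.32 to 9.67 in NC libraries (-1.80 ± 0.30, adjusted p = 8.73e-05). ENSRNOG00000066162 on chromosome 4 (67436558 to 67444291), far from its nearest coding gene Clec2l, had 0.560 to 33.2 FPKM with a median of 20.4 in CKD and 33.4 to 49.4 with a median of 43.5 in NC libraries (-1.81 ± 0.67, adjusted p = 0.0309). Its lowest values were 0.560 in CKD 2, 3.48 in CKD 5 and 3.23 in SZ 3. Without these 3 libraries the log2 fold change was -0.71 (adjusted p = 0.00115), and the call was lost on leaving out CKD 2 alone (-1.22, adjusted p = 0.0762), CKD 5 alone (-1.52, adjusted p = 0.077), or NC 1, NC 3 or NC 6 (-1.79 to -1.76, adjusted p up to 0.0534). It was also lost with 1 FPKM sum (-1.36, adjusted p = 0.101), with plain totals (-1.48, adjusted p = 0.0706), without the 20 most abundant genes (adjusted p = 0.0564) and with no filter on low values (adjusted p = 0.055).

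A group of 6 members with mitochondrial descriptions, grouped after their values were seen, did not change by the test in CKD against NC. They were those matched to Tim13, PRELI domain-containing protein 1, the Mic10 subunit of the cristae-organizing complex (Micos10), the mitochondrial ribosomal protein L52 (Mrpl52), Cox14 and the copper chaperone of cytochrome c oxidase. Their log2 fold changes lay between -0.06 and 0.16 with a lowest adjusted p of 0.38 by limma. The Tim13-matched gene had 86.9 to 230 FPKM with a median of 87.7 in CKD and 68.2 to 118 with a median of 106 in NC libraries, and its sign turned when CKD 5 was left out (-0.065). The PRELI-matched gene had 146 to 262 FPKM in CKD and 191 to 219 in NC libraries (-0.03 ± 0.14). Scaled to 1 FPKM sum, both were called higher in CKD, at 0.60 for the Tim13-matched gene (adjusted p = 0.0299) and 0.42 for the PRELI-matched gene (adjusted p = 0.00395), and with plain library totals the PRELI-matched gene was too (0.31, adjusted p = 0.0387).

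**Figure D4:**
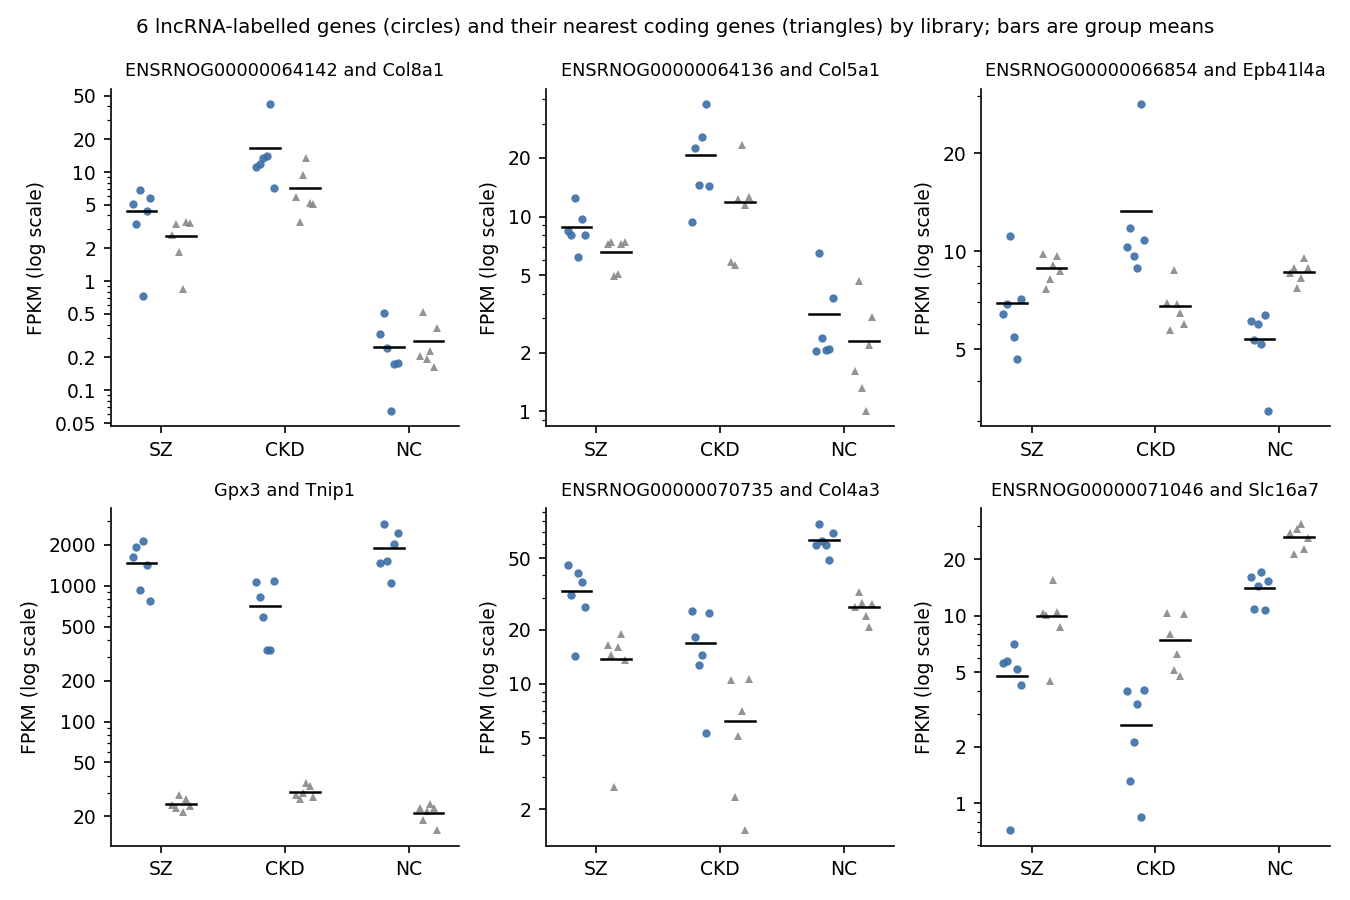
FPKM by library (y axis, log scale) of 6 lncRNA-labelled genes (blue circles) and their nearest coding genes (grey triangles) in SZ, CKD and NC kidneys, with black bars at group means. The upper row shows members that rose in CKD against NC and the lower row members that fell, and Tnip1 moves against Gpx3, as Epb41l4a does against its neighbour except with 1 FPKM sum, where its CKD against NC value turns to 0.09.

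The next question was whether the members changed with the coding gene beside them. The nearest coding gene was itself tested for 146 members. In CKD against NC, 105 of these 146 pairs (71.9%) had log2 fold changes of the same sign, and Pearson's r across the pairs was 0.66. Both members of the pair were called in 44 pairs, 40 in the same direction and 4 in opposite directions. Only the lncRNA-labelled gene was called in 20 pairs, only the coding gene in 20, and neither in 62. Both genes of a pair were measured in the same libraries and can share reads at their ends, so r is a description of these pairs.

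Members with and without a description are given apart, and the difference between them was not tested. Among the 121 with none, 91 had the sign of their neighbour and r was 0.81, while among the 25 with a description 14 did and r was 0.21. By strand and side, r was 0.76 over 69 pairs on the same strand at the 3′ side within 5000 bases, 0.67 over 50 pairs on the other strand there, and 0.45 over the 27 other pairs. Protein-coding genes set against their nearest tested coding gene within 5000 bases had the same sign in 56.1% of 5826 pairs, with r at 0.21. Without CKD 2, CKD 5 and SZ 3, r of the undescribed members was 0.95 and 104 of 121 had the sign of their neighbour. Those libraries stood apart in the difference between member and neighbour, so a rise of r without them follows in part from that choice.

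**Figure D5:**
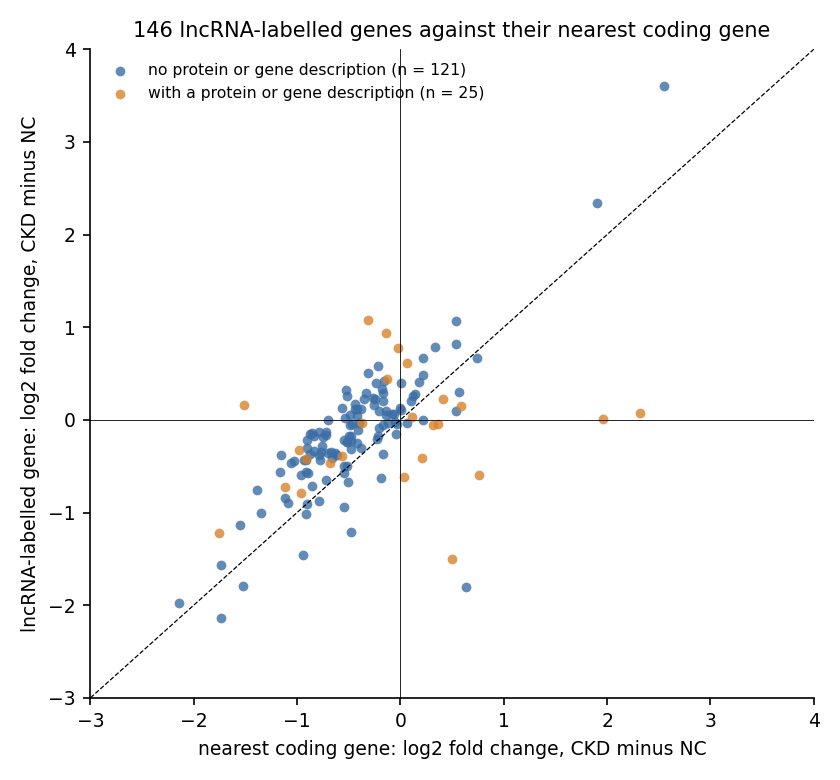
Log2 fold change, CKD minus NC, of FPKM + 1 of 146 lncRNA-labelled genes (y axis) against that of the nearest coding gene (x axis), with the dashed line at equal change. Of the 121 genes with no description (blue, r at 0.81), 101 lie above the line, and the 25 with a description (orange, r at 0.21) include several near 0 whose neighbours are far from it.

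A test of the difference within each pair asked which members changed unequally with their nearest tested coding gene. In CKD against NC, 27 of the 170 members differed from that neighbour, 16 higher and 11 lower relative to it, while 50.5% of 13848 tested genes of any type differed from theirs (25.1% higher and 25.4% lower). Of the 146 members whose nearest coding gene was the one tested, 5 of 121 undescribed members (4.13%) and 14 of 25 described members (56%) differed. Without CKD 2, CKD 5 and SZ 3 these counts were 7 of 121 and 14 of 25. Among coding genes within 5000 bases of each other, 49.7% of 5826 pairs differed. A few described members that differed, singled out after their values were seen, stood beside genes with large changes of their own. C1qtnf5 changed by 2.32, Mmp14, a membrane-bound matrix metalloproteinase gene, by 1.96, and Gpd1, glycerol-3-phosphate dehydrogenase, by -1.51, while their lncRNA-labelled neighbours, matched to Rnf26, to Mrpl52 and to Cox14, changed by 0.07, 0.01 and 0.16.

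The coding gene had the lower log2 fold change in 115 of the 146 pairs in CKD against NC, with a median of -0.15 for the lncRNA-labelled genes and -0.46 for their neighbours. CKD 2, CKD 5 and SZ 3 had been set apart in part by this same difference, so leaving them out was bound to shrink the imbalance. Without CKD 2, CKD 5 and SZ 3 the coding gene had the lower value in 44 of 146 pairs, and the medians were -0.22 for the lncRNA-labelled genes and -0.17 for their neighbours. With lowess correction for gene length the coding gene had the lower value in 112 of 146 pairs. The cause of the imbalance was not tested.

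The second comparison sets the rats given SZ-A with adenine against those given adenine only. In SZ against CKD kidneys 10 of the 170 members were called by limma, 7 higher and 3 lower (5.88%), while 11% of all 13851 tested genes were called (4.16% higher and 6.82% lower), and 12.4% of the protein-coding genes under the same FPKM rule. At an unadjusted p under 0.05 there were 38 members. The groups' ranges were apart for 1 member, ENSRNOG00000064142, and for 2.26% of all tested genes. Leaving out single libraries gave 2 to 25 calls, and the count was 3 when only the SZ and CKD libraries were fitted. By scaling, it was 2 higher and 20 lower with 1 FPKM sum, 6 higher and 16 lower with plain totals, and 5 higher and 6 lower without the 20 most abundant genes, against 7 and 3.

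The members lower in SZ than in CKD kidneys lay beside Col8a1, Col5a1 and Epb41l4a. ENSRNOG00000064142 had 0.734 to 6.92 FPKM with a median of 4.73 in SZ and 7.11 to 41.8 with a median of 12.7 in CKD libraries. Every SZ library was below every CKD library, at -1.63 ± 0.35 (adjusted p = 0.00977 by limma), and the call held in every alternative tried. Col8a1 had 0.849 to 3.47 FPKM in SZ and 3.45 to 13.5 in CKD libraries (-1.12 ± 0.25, adjusted p = 0.0118). ENSRNOG00000064136 had 6.19 to 12.5 FPKM with a median of 8.24 in SZ and 9.41 to 37.7 with a median of 18.5 in CKD libraries (-1.04 ± 0.28, adjusted p = 0.0253), with some overlap. Without CKD 2, CKD 5 and SZ 3 it was -0.83 at an adjusted p of 0.0654, and the call was also lost on leaving out CKD 4, CKD 5, SZ 2 or SZ 4 alone (-1.02 to -0.85, adjusted p up to 0.0682). Col5a1 did not pass (-0.64 ± 0.28, adjusted p = 0.15). The macrophage sums of SZ and CKD did not overlap and the fibroblast sums did, and their part in these results was not tested.

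ENSRNOG00000066854 had 4.68 to 11.2 FPKM with a median of 6.65 in SZ and 8.91 to 28.3 with a median of 10.6 in CKD libraries (-0.77 ± 0.23, adjusted p = 0.0400 by limma). Epb41l4a rose by 0.35 ± 0.09 (7.66 to 9.84 FPKM in SZ and 5.72 to 8.79 in CKD, adjusted p = 0.0267), a call lost in 11 of 32 alternatives, among them 1 FPKM sum (0.22) and the omission of CKD 2, CKD 5, SZ 1, SZ 4 or SZ 5 (0.31 to 0.34). The Epb41l4a call was also lost without CKD 2, CKD 5 and SZ 3 together (0.30, adjusted p = 0.0629 by limma). The pair differed by -1.12 ± 0.27 (adjusted p = 0.0161). The call of the member alone was lost without CKD 5 (-0.54, adjusted p = 0.0718) and on leaving out CKD 2 or any SZ library but SZ 3 (adjusted p up to 0.0956), and it stood without CKD 2, CKD 5 and SZ 3 together (-0.63, adjusted p = 0.0177). It was also lost with no filter on low values (adjusted p = 0.071), with only the SZ and CKD libraries fitted (0.0907) and with the replicate block (0.0594).

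Gpx3 had the highest fold change among the members called higher in SZ. It had 765 to 2144 FPKM with a median of 1518 in SZ and 335.3 to 1079 with a median of 705 in CKD libraries, with overlap, at 1.12 ± 0.35 (adjusted p = 0.0449 by limma). The call was lost in 16 of 32 alternatives, in which the adjusted p reached 0.115, while the log2 fold change stayed between 0.94 and 1.29 over all 32. Leaving out any of NC 1, NC 3, NC 5, NC 6, CKD 3, CKD 4, CKD 5, SZ 1, SZ 2, SZ 4 and SZ 5 ended the call (0.94 to 1.12), as did leaving out CKD 2, CKD 5 and SZ 3 together (1.10, adjusted p = 0.0792). The proximal tubule sum was 1367 to 2285 FPKM in SZ and 489.7 to 1271 in CKD libraries, which did not overlap, and its part in this result was not tested.

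The other members called higher in SZ had no description. ENSRNOG00000070735 beside Col4a3 had 14.2 to 45.8 FPKM with a median of 34.1 in SZ and 5.30 to 25.5 with a median of 16.3 in CKD libraries (0.98 ± 0.30, adjusted p = 0.0444 by limma), and this call was lost in 19 of 32 alternatives, among them each left-out library other than NC 2, CKD 1, CKD 6 and SZ 3 (0.71 to 1.03, adjusted p up to 0.106). Col4a3 changed by 1.07 ± 0.40 (adjusted p = 0.0824), and passed without CKD 2, CKD 5 and SZ 3 (0.89, adjusted p = 0.00768), without CKD 1 (1.25), without SZ 3 (1.44) and with array weights (1.01). ENSRNOG00000063173 on chromosome 1 (216158029 to 216169026), 1011 bases before the start of Trpm6, a magnesium channel gene of the distal tubule, on the other strand, had 6.50 to 11.9 FPKM in SZ and 3.10 to 10.7 in CKD libraries (0.69 ± 0.20, adjusted p = 0.0328). ENSRNOG00000065247 beside Sc5d, a sterol desaturase gene of cholesterol synthesis, had 9.48 to 16.3 FPKM in SZ and 6.21 to 11.97 in CKD libraries (0.54 ± 0.16, adjusted p = 0.0344). The call beside Trpm6 was lost on leaving out CKD 3, CKD 4, CKD 5, CKD 6, SZ 2, SZ 4 or SZ 6 (0.57 to 0.68) or CKD 2, CKD 5 and SZ 3 together (0.70, adjusted p = 0.0725), and that beside Sc5d on leaving out CKD 3, CKD 4, CKD 6, SZ 1, SZ 2, SZ 4 or SZ 6 (0.45 to 0.53). Both calls were also lost with no filter on low values (adjusted p = 0.0582 beside Trpm6 and 0.0565 beside Sc5d). With only the SZ and CKD libraries fitted, both were lost as well (adjusted p = 0.099 and 0.0768). The call beside Trpm6 was further lost with the replicate block (adjusted p = 0.0629), and that beside Sc5d with 1 FPKM sum (0.41, adjusted p = 0.0652). ENSRNOG00000066402 beside Sfxn5, a mitochondrial carrier gene, had 13.2 to 18.2 FPKM in SZ and 9.20 to 14.2 in CKD libraries (0.47 ± 0.12, adjusted p = 0.0179) and stayed called in all 32 alternatives. ENSRNOG00000070935 beside Eif4ebp2 had 62.5 to 78.4 FPKM in SZ and 43.3 to 67.0 in CKD libraries (0.41 ± 0.11, adjusted p = 0.0241), a call lost without CKD 3, CKD 5, SZ 1, SZ 2 or SZ 4 (0.36 to 0.40), with 1 FPKM sum (0.27, adjusted p = 0.113) and with only the SZ and CKD libraries fitted (adjusted p = 0.0799). The remaining one was ENSRNOG00000066282 beside Clmn, named here because the count is small (19.1 to 31.7 FPKM in SZ and 13.2 to 22.8 in CKD, 0.41 ± 0.13, adjusted p = 0.0461), and its call was lost in 22 of 32 alternatives, with values of 0.27 to 0.43.

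The RhoB-matched gene had 72.2 to 135 FPKM with a median of 84.4 in SZ and 81.9 to 214 with a median of 157 in CKD libraries, which did not pass (-0.65 ± 0.23, adjusted p = 0.0700 by limma). It was called lower in 4 alternatives, with 1 FPKM sum (-0.80, adjusted p = 0.0473), with plain totals (-0.78, adjusted p = 0.0398), with array weights (-0.75, adjusted p = 0.028) and without CKD 1 (-0.82, adjusted p = 0.0105). The 6 mitochondrial members were between -0.33 and 0.11 with a lowest adjusted p of 0.18.

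In SZ against CKD the pairs of neighbours were of the same sign in 88 of 146 cases (60.3%), with r at 0.47, and in 75 of the 121 pairs without a description, with r at 0.63. Without CKD 2, CKD 5 and SZ 3 this was 100 of 121, with r at 0.82, which follows in part from how those libraries were set apart. By the test of the difference within pairs, 8 of 170 members differed from their nearest tested coding gene, 6 higher and 2 lower, against 12.3% of all tested genes (6.08% higher and 6.27% lower). Of the 146 pairs above, none of the 121 undescribed members and 6 of the 25 described ones differed, Gpx3 among them (1.41 ± 0.41 higher than Tnip1, adjusted p = 0.0333 by limma). The Gpx3 call was lost on leaving out CKD 3, CKD 4, CKD 5, SZ 1, SZ 2, SZ 4 or SZ 5 (1.18 to 1.42, adjusted p up to 0.0897), and without CKD 2, CKD 5 and SZ 3 together (1.44, adjusted p = 0.0554).

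The last comparison sets SZ against NC kidneys. A total of 27 members were called, 7 higher and 20 lower (15.9%), against 21.1% of all tested genes, with 12.5% of them higher and 8.61% lower, and against 20.6% of the protein-coding genes under the same FPKM rule. The split was 26 higher and 5 lower with 1 FPKM sum, 14 and 8 with plain totals, and 9 and 9 without the 20 most abundant genes. ENSRNOG00000064142 had the highest log2 fold change (0.734 to 6.92 FPKM in SZ and 0.0643 to 0.506 in NC, 1.97 ± 0.35, adjusted p = 5.55e-04 by limma), then ENSRNOG00000064136 (6.19 to 12.5 FPKM in SZ and 2.04 to 6.52 in NC, 1.30 ± 0.28) and the RhoB-matched gene (72.2 to 135 FPKM in SZ and 31.2 to 67.7 in NC, 0.91 ± 0.23). The lowest were those beside Slc16a7, ENSRNOG00000071046 (0.719 to 7.07 FPKM in SZ and 10.7 to 17.1 in NC, -1.52 ± 0.32) and ENSRNOG00000068660 (5.48 to 12.1 FPKM in SZ and 17.2 to 28.2 in NC, -1.48 ± 0.24). Gpx3 did not differ by the test (-0.38 ± 0.35, adjusted p = 0.47), with 765 to 2144 FPKM in SZ and 1042 to 2861 in NC libraries.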

How the data were processed

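The authors deposited 1 table of FPKM per gene for 18 kidney libraries. Reads were aligned with HISAT2 2.0.5 to mRatBN7.2, per the submitters' processing notes. No source used here names the program that counted reads, how it treated strand, or which annotation release it used. FPKM times gene length came out as whole multiples of 1 step for 100% of values above 0 within a tolerance of 0.01, which gave reads and totals per library. An FPKM of a low gene rests on few reads, and its fold change is understated by the pseudocount. The depth of 15354358 to 18532375 reads sets this precision.

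Members were genes typed lncRNA with FPKM of at least 5 in at least 6 of 18 libraries. Members and lists were chosen with earlier results of these data known. Genes with FPKM of at least 1 in at least 6 libraries (13851) entered the test. Their log2(FPKM + 1) values were fitted with limma (version 3.58.1, R 4.3.3) as the means of 3 groups over all libraries, with the variance allowed to follow the level. P-values are 2-sided, were adjusted by Benjamini-Hochberg over all tested genes, and count as called under 0.05. Standard errors are limma's. Every adjusted p is limma's, whether or not its sentence says so. For pairs, the log2 value of the nearest tested coding gene was subtracted within each library and the same fit was run over 13848 genes. Nearest means the smallest gap between gene bodies on 1 chromosome. The steps were tested on simulated data. Tables were made with Python 3.11.15 and pandas 2.3.3.

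Named genes are the 5 with the highest mean FPKM, the 5 called members with the largest and the smallest log2 fold change in CKD against NC and in SZ against CKD, any member among 73 listed lncRNA symbols (none was), and 3 on each side of the FPKM threshold, each with its nearest coding gene. Alternatives changed the pseudocount, filter, scaling, variance model, libraries and length correction, and used a replicate block or limma's voom on the recovered reads, which called 6842 genes in CKD against NC, 1517 in SZ against CKD and 2719 in SZ against NC. Genes marked in the text as singled out after their values were seen fall outside that rule. The counts for members with no description, and for neighbours within 5000 bases, and the signs and named differences of pairs under each alternative, were added after seeing the data. Replicate numbers are shared between groups by label only.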

Additional observations from a re-analysis of the deposited data

Results flagged for a closer look

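Of 51 sets of 6 libraries (17 named members in 3 groups), 9 held a library far from the other 5 by Dixon's criterion. It would flag about 1 of 20 independent sets with normal spread. The 51 sets share libraries and hold members picked from these data, so 9 cannot be set against that rate. The Tim13-matched ENSRNOG00000019682 had 158 FPKM in SZ 3, where the next highest SZ library had 88.5, and 230 in CKD 5, where the next highest CKD library had 139. It also had 68.2 FPKM in NC 6, where the next lowest NC library had 102. CKD 5 was the high library for 3 other members. ENSRNOG00000064142 beside Col8a1 had 41.8 FPKM there and 14.0 in the next, ENSRNOG00000064309 had 73.4 and 29.0, and ENSRNOG00000066854 beside Epb41l4a had 28.3 and 11.8. ENSRNOG00000066854 was also low in NC 6, at 3.23 FPKM with the next at 5.18. ENSRNOG00000066162 had 3.23 FPKM in SZ 3 and 31.9 in the next lowest SZ library. ENSRNOG00000065826 beside Zfp354a had 5.32 FPKM in SZ 2 and 2.28 in the next highest. SZ 3 and CKD 5 are among the 3 libraries with the lowest slopes on gene length (-0.248 in SZ 3 and -0.312 in CKD 5), and the part of that slope in these values was not tested.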

How the results depend on the processing

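Over 17 named members, 831 values under alternatives were computed, of which 726 kept direction and call, 89 kept direction and lost the call, 5 gained it and 11 turned direction. All that turned were of 2 members not called as reported. The PRELI-matched ENSRNOG00000016410 in CKD against NC was 0.42 with 1 FPKM sum (then called), 0.31 with plain totals (then called), 0.092 without the 20 most abundant genes, 0.017 without CKD 3 and 0.060 without CKD 4. In SZ against CKD it was 0.023 without CKD 2, 0.050 without CKD 2, CKD 5 and SZ 3 and 0.069 with length correction. Leaving out single libraries moved it from -0.11 to 0.060 in CKD against NC and from -0.15 to 0.023 in SZ against CKD. The Tim13-matched ENSRNOG00000019682 in CKD against NC was -0.13 with array weights, -0.065 without CKD 5 (single libraries left out: -0.065 to 0.21) and -0.20 without the 3 libraries.

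Counts of called members moved by over 1.5 times as follows, and the cause was not tested except where the number of genes counted differs. With a threshold of 2 FPKM, 299 genes were counted and 131 were called in CKD against NC, 17 in SZ against CKD and 50 in SZ against NC. SZ against CKD gave 4 calls without a filter on low values, 22 with 1 FPKM sum, 22 with plain totals, 3 with only the 2 groups compared, 21 with array weights and 6 with the replicate block. SZ against NC gave 58 with array weights. Members apart from a neighbour that was nearest and within 5000 bases numbered 14 of 131 in CKD against NC. Leaving out single libraries gave 68 to 85 calls in CKD against NC, 2 to 25 in SZ against CKD and 21 to 31 in SZ against NC, and 24 to 31 and 3 to 19 members apart from their neighbour in CKD against NC and in SZ against CKD. For SZ against CKD, 25 calls came without CKD 1 and 23 without SZ 3, while leaving out CKD 3, CKD 4, CKD 5, SZ 1, SZ 2, SZ 4 or SZ 6 gave 2 to 6. For members apart from their neighbour in that comparison, 19 came without SZ 3, 12 without CKD 1, and 3 or 4 without CKD 4, CKD 5, SZ 1, SZ 2, SZ 4 or SZ 5.

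Replicate numbers did not pair the libraries. Correlations of same-numbered deviations ran from -0.36 to 0.232 with a median of -0.008, and 1 of 18 libraries correlated best with its own number. With the replicate block, members called numbered 70 in CKD against NC, 6 in SZ against CKD and 22 in SZ against NC, and members apart from their neighbour 26 and 5. Depth limits the lowest members most, such as ENSRNOG00000064142 with 24 reads over the NC libraries and ENSRNOG00000065826 with 61 reads over the CKD libraries.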

Other observations

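At 5 coding genes, Xiap, Slc16a7, Klhdc10, Gnaq and Lpp, a pair of lncRNA-labelled members shared the same nearest gene, and at all but Slc16a7 the pair lay on opposite strands. At Lpp, an actin-associated adaptor gene, the member on the opposite strand (ENSRNOG00000068345, 95 bases away) ran from 0.801 to 14.9 FPKM in SZ, 0.930 to 12.5 in CKD and 7.996 to 15.3 in NC libraries, while the one on the same strand (ENSRNOG00000063170, 5389 bases away) ran from 15.4 to 23.0 in SZ, 16.8 to 21.4 in CKD and 21.0 to 24.8 in NC libraries. At Xiap, an inhibitor of caspases, the member on the opposite strand ran from 3.97 to 11.2 FPKM in SZ, 1.04 to 9.81 in CKD and 9.92 to 15.0 in NC libraries, and the one on the same strand from 11.5 to 14.8 in SZ, 10.8 to 22.2 in CKD and 13.2 to 18.7 in NC libraries. At Klhdc10, a ubiquitin ligase adaptor, the opposite-strand member ran from 4.67 to 15.8 FPKM in SZ, 3.17 to 13.2 in CKD and 13.8 to 18.8 in NC libraries, and the same-strand one from 28.1 to 32.4 in SZ, 22.8 to 32.0 in CKD and 30.4 to 39.2 in NC libraries. At Gnaq the opposite-strand member ran from 12.6 to 15.3 FPKM in SZ, 11.9 to 18.2 in CKD and 11.63 to 15.45 in NC libraries. The same-strand one there ran from 7.10 to 15.8 in SZ, 12.4 to 15.6 in CKD and 10.1 to 17.0 in NC libraries. The lower SZ minimum was thus of the same-strand member at Gnaq, and of the opposite-strand member at Lpp, Xiap and Klhdc10.

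A total of 3 members held small RNA genes (typed snoRNA, miRNA or scaRNA, counted together) on their own strand. ENSRNOG00000071131 held 4, the Rpl30-named gene held 2 and ENSRNOG00000066854 held 1. ENSRNOG00000071131, 58 bases from Trnau1ap, ran from 8.07 to 15.5 FPKM in SZ, 7.65 to 16.6 in CKD and 6.50 to 14.8 in NC libraries, and was 0.57 ± 0.18 higher relative to that neighbour in CKD against NC (adjusted p = 0.0136 by limma). The Rpl30-named member, on another chromosome than the coding gene of that symbol, ran from 5.69 to 23.9 FPKM in SZ, 8.46 to 49.8 in CKD and 5.65 to 16.2 in NC libraries (0.94 ± 0.41 in CKD against NC, adjusted p = 0.0628, not called).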
